A study of Mus musculus with 86 samples.

Results

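Whole brains of male C3H mice with 1 targeted and 1 intact copy of Dll1 were compared with those of wild-type C3H males on 10 of the 86 arrays of the series. These arrays were chosen by their sample titles, which name the Dll1 C3H line and brain, and no measured value entered the choice. The heterozygous mice (Dll1 +/- per the labels) carried the Dll1tm1Gos allele, a knock-in of lacZ that inactivates the gene. The allele had been made in another inbred strain and was outcrossed to C3HeB/FeJ. The stretch of chromosome 17 beside it can therefore still come from the donor strain in heterozygous mice. Of the genome-wide SNPs that the study typed in this line, 1 was still heterozygous, about 5 Mb from Dll1. Per the labels the C3H animals were 15 weeks old, while the methods of the study give 16 weeks. Animals of the 129SvJ/Iso line, used below for comparison, were labelled as 16 weeks old. RNA of the whole brain of each of 5 heterozygous mice was hybridised to a pair of 2-colour cDNA arrays, labelled with Cy5 on 1 and with Cy3 on the other, together with a pool of wild-type brain RNA in the other dye. The labels name 5 wild-type mice in that pool, while the labelling protocol speaks of a larger pool. The other organs (liver, thymus and spleen of the same C3H mice) and the 129SvJ/Iso line enter below only where a brain value is set against them.

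Dll1 is a membrane-bound ligand of the Notch receptors. When it meets a receptor on a neighbouring cell, the receptor is cut by proteases, and its released intracellular part joins the DNA-binding protein RBPJ and Mastermind coactivators in the nucleus to switch on target genes, among them the Hes and Hey repressors. In the developing brain, Dll1 on cells that begin to differentiate keeps their neighbours in the precursor state, and in the adult brain the pathway is known from neural stem cells, astrocytes and synapses. The comparison asked whether the adult brain of animals with 1 intact Dll1 copy differs in its transcripts.

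Every value below is a log2 ratio, heterozygous over wild type, so that 0 stands for equal levels and 1 for a level 2-fold higher in heterozygous mice. For each probe the value of a mouse is the mean of its Cy5 and its Cy3 array, and means are given ± SD over mice, with n = 5 unless stated. The wild-type pool is 1 control sample, hence the test against 0 by limma holds the spread between heterozygous mice only. On the 10 arrays 1.82% to 6.58% of the probes had no usable value, array medians lay between −0.03 and 0.04, and the SD of all values of an array was 0.458 to 0.808. The numerator of the ratio is likely, not certain, since the labels do not name it. On all 86 arrays the deposited extreme values have the sign that a ratio turned to heterozygous over wild type would give. This reading assumes that an extreme value stood for Cy5 over a near-absent Cy3 signal before turning, which was not tested. Spot intensities were not used here, so levels of brain markers could not be set against other organs, and the labelled tissue could be checked only through ratios. In RNA of a whole organ, fewer cells of a type and less RNA per cell cannot be told apart.

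No probe passed the test after adjustment. Of 20201 probes with values in at least 3 mice, 0 had an adjusted p under 0.05 (0% called), and the smallest adjusted p was 0.321. Before adjustment 1769 probes had p under 0.05, which is 8.76% of those tested, with 753 higher (3.73%) and 1016 lower (5.03%) in heterozygous mice. These probes are not calls. The phrase "at the unadjusted threshold" below refers to this p under 0.05, and the shares just given are the background against which each count of genes is read. Among probes with a gene symbol the shares were 3.38% higher and 5.47% lower.

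The highest means of the 20201 probes belonged to Atp6v0a1, a membrane subunit of the proton pump that acidifies synaptic vesicles and lysosomes, and to Dynlt1b, a light chain of the dynein motor. Atp6v0a1 (chromosome 11) had a pair of probes. Probe 20462 gave 1.35, 0.998, 1.55, 1.76 and 2.08 in heterozygous mouse 1 to mouse 5, a mean of 1.55 ± 0.41 or 2.92-fold (adjusted p = 0.321). Probe 17392 gave 1.20, 0.81, 1.31, 1.54 and 1.80, a mean of 1.33 ± 0.37 or 2.52-fold (adjusted p = 0.329). Every one of the 10 arrays lay above 0 for both probes, from 0.87 to 2.19 and from 0.64 to 1.80, and the mice kept the same order in both. Dynlt1b (chromosome 17) had 1.05, 0.81, 1.45, 1.50 and 1.89 by probe 3029, a mean of 1.34 ± 0.42 or 2.53-fold (adjusted p = 0.465), again above 0 on all 10 arrays and with mouse 2 lowest and mouse 5 highest. Its other probe, 12513, gave 0.01 ± 0.26, with 7 of 10 arrays above 0, so the probes of Dynlt1b disagreed. When limma was instead run on the 10 arrays singly, with a random term for the mouse, 4 probes passed. Of these, 3 were higher: Atp6v0a1 probe 20462 (adjusted p = 0.0037), Atp6v0a1 probe 17392 (adjusted p = 0.00427) and Dynlt1b probe 3029 (adjusted p = 0.0107). The lower one carries no gene symbol. That fit used 1 correlation between the arrays of a mouse, 0.117, for all probes. It thus treated the arrays of a mouse almost as separate samples, and the test over mouse means remains the main one.

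The remaining genes among the 12 named on the higher side had smaller values. These 12 have the smallest p among higher probes with a gene symbol, values in at least 4 mice and 1 sign in every mouse. That even sign was thus a criterion of choice. Tbp, the TATA-binding protein that starts transcription, had 0.31, 0.34, 0.78, 0.40 and 0.33, a mean of 0.43 ± 0.20, and lay above 0 on all 10 arrays from 0.17 to 0.94. Itgb3bp, a protein of the centromere, had 0.38 ± 0.08 with 9 of 10 arrays above 0. Ubap1, which sorts ubiquitin-marked cargo in endosomes, had 0.65 ± 0.34 by 1 probe, while its other probes gave 0.13 ± 0.16 and −0.02 ± 0.11. Single probes disagreed for several of these genes. Fli1, a transcription factor of blood and vessel cells, had 0.42 ± 0.17 by probe 4083 and 0.06 ± 0.27 by probe 4428, and the zinc finger gene Zfp420 had 0.56 ± 0.26 and −0.22 ± 0.42 (n = 4). Car12, a carbonic anhydrase, had 0.42 ± 0.07, Gdap2 0.47 ± 0.09 and Atg2b, a lipid transfer protein of autophagy, 0.47 ± 0.16 (n = 4 each). Spcs1, a subunit of the signal peptidase, shows how even mouse means can hide uneven arrays: its mice lay between 0.20 and 0.69, but its arrays ran from −1.25 to 2.20 with 6 of 10 above 0.

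The 12 lower probes with the smallest p by the same rule are described next, and their even sign over mice was again a criterion. Probe 279, which carries no gene symbol and was not eligible, had −0.717 ± 0.044 (adjusted p = 0.321 by limma). Ank2, an ankyrin that ties membrane proteins to the spectrin skeleton of axons, had −0.38, −0.45, −0.37, −0.34 and −0.43 by probe 17314, a mean of −0.39 ± 0.05 or 0.761-fold (adjusted p = 0.565). All 10 arrays lay below 0, from −0.52 to −0.21, and a second Ank2 probe gave −0.24 ± 0.14 with 9 of 10 arrays below 0. Smarcc2, a core subunit of the SWI/SNF chromatin remodeller, had −0.53, −0.44, −0.36, −0.49 and −0.46 by probe 10452 (mean −0.46 ± 0.06). Its other probes were at −0.24 ± 0.13 and −0.02 ± 0.20, so that 1 of 3 probes showed almost no difference. Camk2a, the alpha subunit of the calcium-dependent kinase of excitatory synapses, had −0.83, −0.46, −0.41, −0.83 and −1.06 by probe 3714 (mean −0.72 ± 0.28). Its second probe, 18100, gave −0.68 ± 0.60 (n = 4) with all 9 measured arrays below 0, a mean drawn down by mouse 2 at −1.56. The pair of Camk2a probes thus lay on the same side in every mouse measured.

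Rab6b, a small GTPase of Golgi transport in neurons, had −0.49 ± 0.16 by probe 2378 and −0.11 ± 0.12 by probe 17887. Fam107a, an actin-binding protein of astrocytes and neurons, had −0.51 ± 0.19, and the replacement histone H3f3a −0.47 ± 0.16. The sorting receptor Sort1 had −0.42 ± 0.13 and −0.17 ± 0.18 by its 2 probes. Rab6b probe 2378, Fam107a, H3f3a and Sort1 probe 11072 were below 0 on all 10 arrays. The RNA-binding protein Atxn2l had −0.56 ± 0.20, with its other probe at 0.03 ± 0.05. Mvb12b, an endosomal sorting subunit, had −0.40 ± 0.08, with other probes at −0.01 ± 0.15 and 0.11 ± 0.21. Nfatc2, a calcium-dependent transcription factor, had −0.86 ± 0.40 and the exonuclease Eri1 −0.64 ± 0.19 (n = 4), both with arrays on either side of 0. Tril, an astrocyte gene whose product aids Toll-like receptors, had −0.89, −1.05, −1.10 and −0.92 in mouse 2 to mouse 5 by probe 5144 (mean −0.99 ± 0.10, n = 4, adjusted p = 0.321). The even mouse means of Tril came from arrays between −2.07 and 0.26, and its other probes gave 0.50 ± 0.81 and 0.02 ± 0.13.

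**Figure D1:**
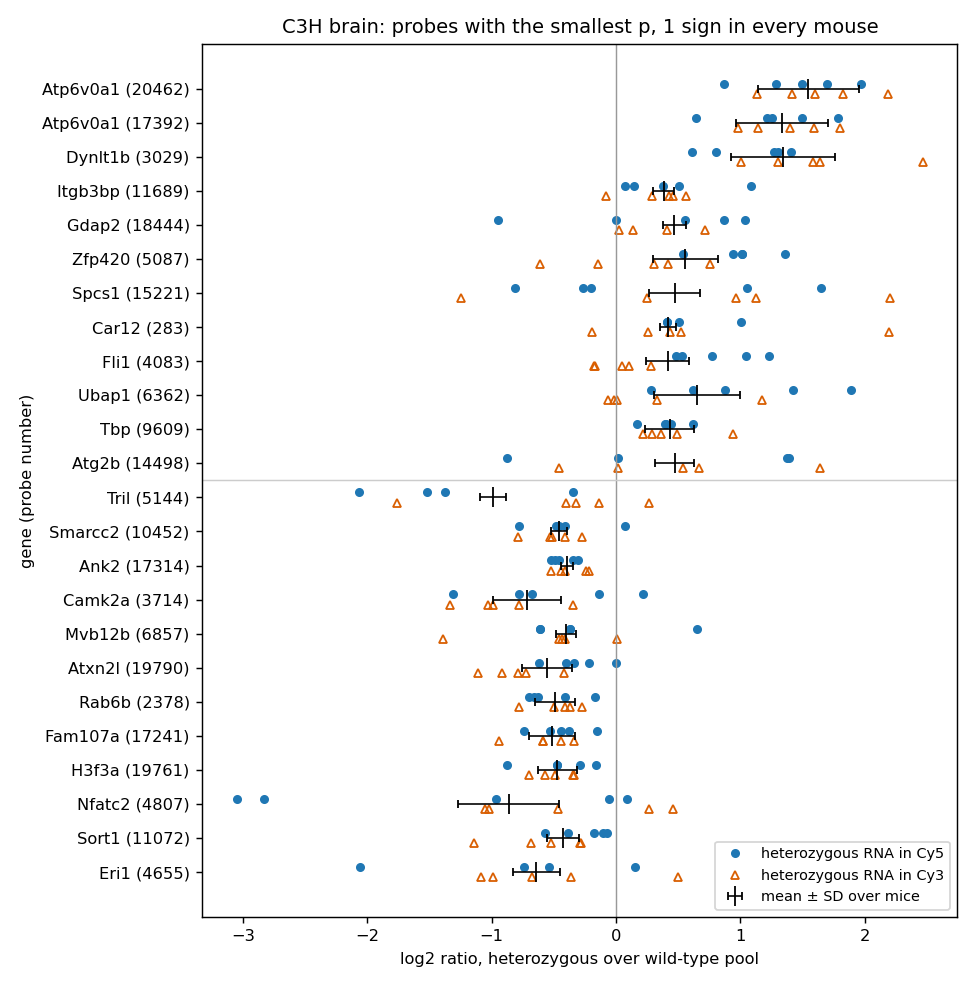
Log2 ratio of heterozygous over wild-type RNA (x axis) on each array for 12 higher and 12 lower probes. They have the smallest p among probes with a gene symbol and 1 sign in every mouse. Filled circles stand for heterozygous RNA in Cy5, open triangles for heterozygous RNA in Cy3, and black bars for the mean ± SD over mice (4 or 5). The Atp6v0a1 probes and Dynlt1b lie wholly above 0, while Spcs1, Nfatc2 and Tril have narrow mouse means over widely spread arrays.

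A probe that lies on the same side of 0 on all 10 arrays does so in both dyes of every mouse. This held for 52 probes above 0 and 176 below 0 of the 16668 with 10 values (0.312% and 1.06%), among them 27 and 113 with a gene symbol. Chosen after the values were seen, the largest means above 0 after Atp6v0a1 and Dynlt1b were Smad2, a mediator of TGF-beta signals (0.79 ± 0.71, with mouse 3 at 2.02), Lrp1b, a large lipoprotein receptor of neurons (0.50 ± 0.26), and Tbp. Below 0 they were Dnmt3a, a DNA methyltransferase (−0.59 ± 0.77, with mouse 4 at −1.92), Fbxo32, a ubiquitin ligase of muscle wasting (−0.53 ± 0.24), Dbp, an output gene of the circadian clock (−0.52 ± 0.36), Fam107a and Myc (−0.48 ± 0.23). Smad2 and Dnmt3a owe the size of their means to 1 mouse each. Dbp had −0.34, −0.76, −0.09, −0.41 and −0.99, so mouse 3 was close to 0. Another Dnmt3a probe, 13968, gave −0.42 ± 0.24 with 8 of 10 arrays below 0. By contrast, probe 18448 gave 0.20 ± 0.17 and probe 16592 gave 0.29.

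Within the Notch pathway no member passed the test, and most means lay close to 0. Dll1 itself was measured by probe 5 and probe 20289. Their position relative to the inserted lacZ is unknown, so neither can serve as a check of the genotype. Probe 5 gave −0.15, −0.15, −0.21, −0.06 and −0.32 in the 5 mice (mean −0.18 ± 0.10, adjusted p = 0.565). These even means held opposite dyes: 4 of the 5 Cy5 arrays lay below 0, from −0.75 to −0.23, with mouse 3 at 0.01, while the Cy3 arrays ran from −0.44 to 0.46. Probe 20289 gave −0.32, −0.04, 0.48, 0.20 and −0.41 (mean −0.02 ± 0.37). A lower Dll1 level was therefore seen by 1 probe only, at a size below the gap between its dyes.

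Of 13 probes for 10 receptors and ligands, 9 lay below 0, their median was −0.06 (−0.09 to −0.02 with 1 mouse left out), and probe 5 of Dll1 was the only one at the unadjusted threshold. The receptor Notch1 had −0.09 ± 0.43 (n = 3), Notch2 0.08 ± 0.89, Notch3 0.02 ± 0.25 and Notch4 −0.13 ± 0.36. The ligand Jag1 had −0.06 ± 0.20. Dll3, a ligand-like protein that acts inside the cell, had 0.25 ± 0.55 and Jag2 −0.29 ± 0.63, each set by 1 mouse (mouse 2 at 1.21 and mouse 5 at −1.39). Dner, a Notch ligand of cerebellar Purkinje cells, had 0.15 ± 0.28, and the inhibitory Dlk1 −0.12 ± 0.32 and −0.09 ± 0.22. The genes that modify, cleave and relay the signal gave 41 probes with a median of 0.01, and 18 of 41 lay below 0. Of these, 2 were lower at the unadjusted threshold and 0 higher. Pofut1, which adds fucose to Notch receptors, had −0.27 ± 0.24, and the coactivator Maml1 −0.23 ± 0.20. Rbpj itself had −0.11 ± 0.25, the receptor proteases Adam10 and Adam17 −0.03 ± 0.12 and 0.09 ± 0.23, the gamma-secretase subunits Ncstn and Aph1a −0.16 ± 0.19 and 0.18 ± 0.15, and the ligand-activating ubiquitin ligase Mib1 0.06 ± 0.07.

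The Hes and Hey repressors, the direct readout of Notch activity in many tissues, had a median of −0.09 over 12 probes, with 8 below 0 and 1 at the unadjusted threshold. The median was −0.04 without mouse 2, −0.15 without mouse 3 and −0.05 without mouse 4. The probe at the threshold was Hes5, the Notch target of neural precursors and astrocytes, with 0.00, −0.12, −0.33, −0.27 and −0.50 (mean −0.24 ± 0.19, adjusted p = 0.565) and 8 of 10 arrays below 0. Hey2, a repressor of vessel cells, had −0.22 ± 0.23 and −0.21 ± 0.24 by its 2 probes. The dyes disagreed for Hey2 probe 25, with means of 0.23 on the Cy5 and −0.68 on the Cy3 arrays. Hes1, a repressor of precursor cells, had 0.57 ± 0.84, of which mouse 1 at 2.04 made the size, and the other mice lay between 0.06 and 0.47. Hey1 had −0.11 ± 0.13, −0.07 ± 0.46 and −0.01 ± 0.26 by 3 probes, Hes7 −0.15 ± 0.13, Hes2 −0.21 ± 0.22, Hes6 0.05 ± 0.25, and Hes3 0.20 ± 0.21 and 0.05 ± 0.32. Neither direction was shared by all repressors.

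The promoters of Hes5 and Hey2 are shown because these genes had the lowest means among the repressors held in the RefSeq promoter table (build GRCm38.p6), which lists 4 of the 8. Capitals mark TGGGAA or its reverse complement TTCCCA, the core letters of the motif that RBPJ binds. The Hes5 stretch (chr4:154960673-154960922, plus strand) is the 250 bases before the gene's start, and the Hey2 stretch (chr10:30842774-30843033, minus strand) holds 250 bases before and 10 after the start.
Hes5: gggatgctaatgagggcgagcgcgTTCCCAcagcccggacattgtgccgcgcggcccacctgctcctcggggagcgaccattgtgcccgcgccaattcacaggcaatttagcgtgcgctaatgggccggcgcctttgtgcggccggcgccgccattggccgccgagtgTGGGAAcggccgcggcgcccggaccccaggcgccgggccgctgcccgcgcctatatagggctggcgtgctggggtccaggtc
Hey2: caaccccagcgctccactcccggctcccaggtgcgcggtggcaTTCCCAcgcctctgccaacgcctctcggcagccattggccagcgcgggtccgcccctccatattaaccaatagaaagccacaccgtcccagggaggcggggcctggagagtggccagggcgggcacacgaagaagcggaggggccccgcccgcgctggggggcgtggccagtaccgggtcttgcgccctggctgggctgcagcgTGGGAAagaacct
Hes5 has the motif 226 and 82 bases before its start, and Hey2 207 and 3 bases before. Of 32851 promoters of 300 bases in that collection, 25.6% hold it at least once and 3.79% at least 2 times. Of the other repressors in the table, Hes7 has it 1 time and Hes6 not in this window. A match of these letters is a description of the sequence and no evidence of binding.

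Genes beside Dll1 were examined since this stretch can carry sequence of the donor strain in the heterozygous mice. Within 10 Mb of Dll1 on chromosome 17 (GRCm38.p6), 116 probes of 86 genes were tested, and 15 of them (12.9%) were at the unadjusted threshold, 10 higher and 5 lower, against 9.36% on the rest of the chromosome and 8.78% on the other chromosomes. Within 5 Mb it was 6 of 31 probes (19.4%). Both counts include Dll1 itself: its probe 5, on the lower side, is 1 of the 15 and 1 of the 6. The median over the 116 probes was −0.01, and without mouse 2 the count of 15 became 9. Tbp, described above, is the nearest such neighbour at 0.12 Mb. The uncharacterised 1600012H06Rik, 0.42 Mb on the other side, had 0.30 ± 0.16 by 1 probe and −0.12 ± 0.39 (n = 4) by another. Dynlt1b lies 8.93 Mb away on that side. Between them, the chaperonin subunit Tcp1 had 0.27 ± 0.11, 0.10 ± 0.07 and 0.05 ± 0.19 by 3 probes, the cation transporter Slc22a2 0.45 ± 0.42, and the acyltransferase Agpat4 −0.32 ± 0.20. Farther out on the same side, Pde10a, a phosphodiesterase of striatal neurons, had 0.76 ± 0.77 (n = 4) and −0.17 ± 0.21, the chemokine receptor Ccr6 0.35 ± 0.34, and the exocytosis protein Sytl3 0.48 ± 0.34 (n = 4). On the other side no probe was tested between 0.33 and 8.30 Mb. Beyond that gap the splicing factor Srrm2 was below 0 by all of its 5 probes, from −0.59 ± 0.31 to −0.15 ± 0.10 (n = 4), the synaptic scaffold Caskin1 had −0.29 ± 0.20, Tbl3 0.27 ± 0.26, and Flywch2 0.95 ± 0.79 (n = 4). Strain-specific sequence under a probe was not tested, and cannot be told apart here from a change in transcript level.

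**Figure D2:**
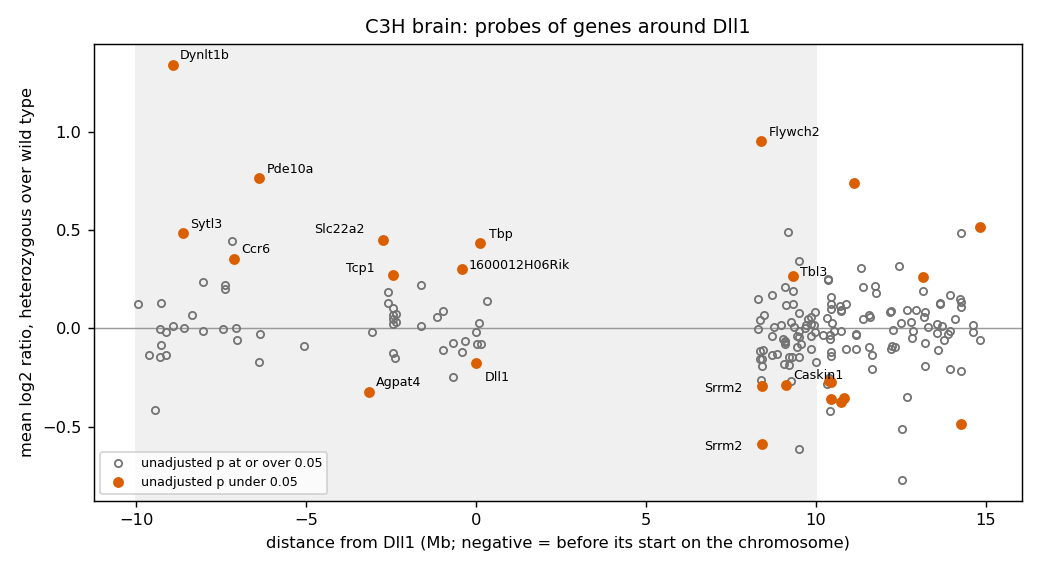
Mean log2 ratio over mice of heterozygous over wild-type RNA (y axis) for each probe tested around Dll1, against its distance from Dll1 on chromosome 17 in Mb (x axis), with the 10 Mb window shaded and filled points for an unadjusted p under 0.05. Dynlt1b at 1.34 is the highest point, Tbp at 0.43 lies beside Dll1, and most probes lie near 0.

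Genes of neurons and synapses lay slightly below 0 as groups, none of them by much. All gene lists here and below were chosen with earlier results of these data known, so their shares are no independent sign. Of 37 probes for general neuronal markers 31 lay below 0 (83.8%, against 46.8% of all probes and 49.2% of those with a symbol), with a median of −0.06 beside 0.01 for all probes. Without mouse 3 the neuronal median was −0.10, and without mouse 1 it was −0.09. Only 1 of them was lower at the unadjusted threshold and 1 higher. The lower one was Syp, a membrane protein of synaptic vesicles (−0.22 ± 0.18), and the higher one a probe of the fusion ATPase Nsf (0.38 ± 0.27), whose other 3 probes gave −0.14, −0.12 and 0.05. Vsnl1, a neuronal calcium sensor, had −0.17 ± 0.11. Genes of the synaptic vesicle cycle had a median of −0.10 over 52 probes, with 35 below 0, 9 lower (17.3%) and 2 higher at the unadjusted threshold. Syngr1, another vesicle membrane protein, had −0.48, −0.80, −0.26, −0.30 and −0.55 (mean −0.48 ± 0.21) and was below 0 on all 10 arrays. Napa, which works with Nsf in membrane fusion, had −0.44 ± 0.16 (n = 4) and the calcium sensor Syt7 −0.38 ± 0.24, with other probes at −0.10 for Napa and −0.12 and −0.09 for Syt7.

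The lists of excitatory and inhibitory synapses both had medians below 0. The glutamate synapse list had −0.07 over 38 probes, with 7 lower (18.4%) and 0 higher at the unadjusted threshold, and −0.13 without mouse 3. Beside Camk2a these included Camk2b (−0.30 ± 0.21), Camk2g (−0.66 ± 0.50, n = 4, with another probe at 0.53) and Grip1, a scaffold of AMPA receptors (−0.36 ± 0.16, and −0.13 by another probe). The GABA list had −0.13 over 19 probes, with 15 below 0 and 2 lower, and −0.07 and −0.06 without mouse 1 and mouse 2. Gad1, the enzyme that makes GABA, had −0.31, −0.16, −0.20, −0.46 and −0.58 by probe 18583 (mean −0.34 ± 0.18), with no array above 0, but 0.04 by its other probe. Gabrb1, a subunit of the GABA-A receptor, had −0.23 ± 0.10. Calcium, cAMP and G protein signalling had a median of −0.10 over 45 probes, with 32 below 0 and 8 lower (17.8%) against 1 higher. That median was −0.05 without mouse 2 and −0.14 without mouse 3. Gnao1, the main G protein of neurons, was below 0 on all 10 arrays by 1 probe (−0.29 ± 0.16) and had −0.12 and −0.01 by others. The protein kinases Prkce and Prkar1b had −0.30 ± 0.12 and −0.36 ± 0.20. Ion channels, by contrast, had a median of 0.01 over 51 probes with 2 higher and 3 lower.

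Markers of brain regions and transmitter systems follow. Striatal projection neurons gave −0.10 over 23 probes, with 4 lower (17.4%) and 2 higher (8.7%) at the unadjusted threshold. The lower ones included Ppp1r1b, the dopamine-regulated phosphatase inhibitor (−0.28 ± 0.19), and the peptide precursor Penk (−0.21 ± 0.08). The list was split, with 9 of its 23 probes above 0 and means from −0.50 to 1.26. Pde10a, the phosphodiesterase of striatal neurons described above, had 0.76 ± 0.77 (n = 4) by 1 probe and −0.17 ± 0.21 by another. Of 11 cerebellar probes 9 lay below 0 with 1 lower, Cbln1, a synapse organiser of granule cells (−0.31 ± 0.13, and −0.06 by another probe). Monoamine and acetylcholine genes had a median of −0.05 over 17 probes, and included the serotonin-gated channel Htr3a at 0.24 ± 0.12 and the amine-degrading enzyme Maob at −0.25 ± 0.13. In the list of hypothalamic peptides and energy balance, with a median of 0.00 over 19 probes, the vasopressin gene Avp had −0.34 ± 0.33, the peptide Pcsk1n −0.23 ± 0.11 with no array above 0, and the insulin receptor Insr 0.38 ± 0.23 (n = 4). Neural precursor genes, the cells in which Dll1 is best known, had a median of −0.08 over 23 probes, with 5 lower (21.7%) and 0 higher, and a median of −0.05 without mouse 2 and −0.14 without mouse 3. Neurod2, a neuronal differentiation factor, had −0.23 ± 0.06 and was below 0 on all 10 arrays, and Sox2 had −0.21 ± 0.15 and 0.01 by its probes. Id4, an inhibitor of differentiation, had −0.46 ± 0.39 by 1 probe and 0.74 by another.

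Among glia, astrocyte genes had the highest share at the unadjusted threshold. Their list, which holds the leading gene Tril, was chosen with earlier results of these data known, so the share is no independent sign. Of 40 astrocyte probes 31 lay below 0, the median was −0.10, and 12 were lower (30.0%) with 0 higher. Besides Tril they included the metallothioneins Mt1, with −0.46, −0.66, −0.15, −0.36 and −0.17 (mean −0.36 ± 0.21) and no array above 0, and Mt3 (−0.62 ± 0.18, n = 4, with other probes at −0.16 and 0.06), and the secreted chaperone Clu (−0.34 ± 0.17). Mouse 3 differed from the other mice here: the median of the astrocyte probes was 0.04 in mouse 3, against −0.17, −0.26, −0.16 and −0.10 in mouse 1, 2, 4 and 5. Without mouse 3, 31 probes still lay below 0 and the median was −0.16. Oligodendrocyte and myelin genes had a median of −0.08 (−0.02 without mouse 1 and −0.03 without mouse 4) over 23 probes with 1 lower, Mobp (−0.57 ± 0.15, n = 3, and −0.09 by another probe), and 1 higher, Gsn. Microglia (16 probes, median −0.03), choroid plexus and ependyma (15 probes, 0.01) and meninges (14 probes, −0.05) had 0 probes at the unadjusted threshold in either direction. Endothelial and mural cells had a median of 0.01 over 20 probes with 1 higher, Vwf (0.79 ± 0.65, n = 3), whose other probes gave 0.13 and −0.64.

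**Figure D3:**
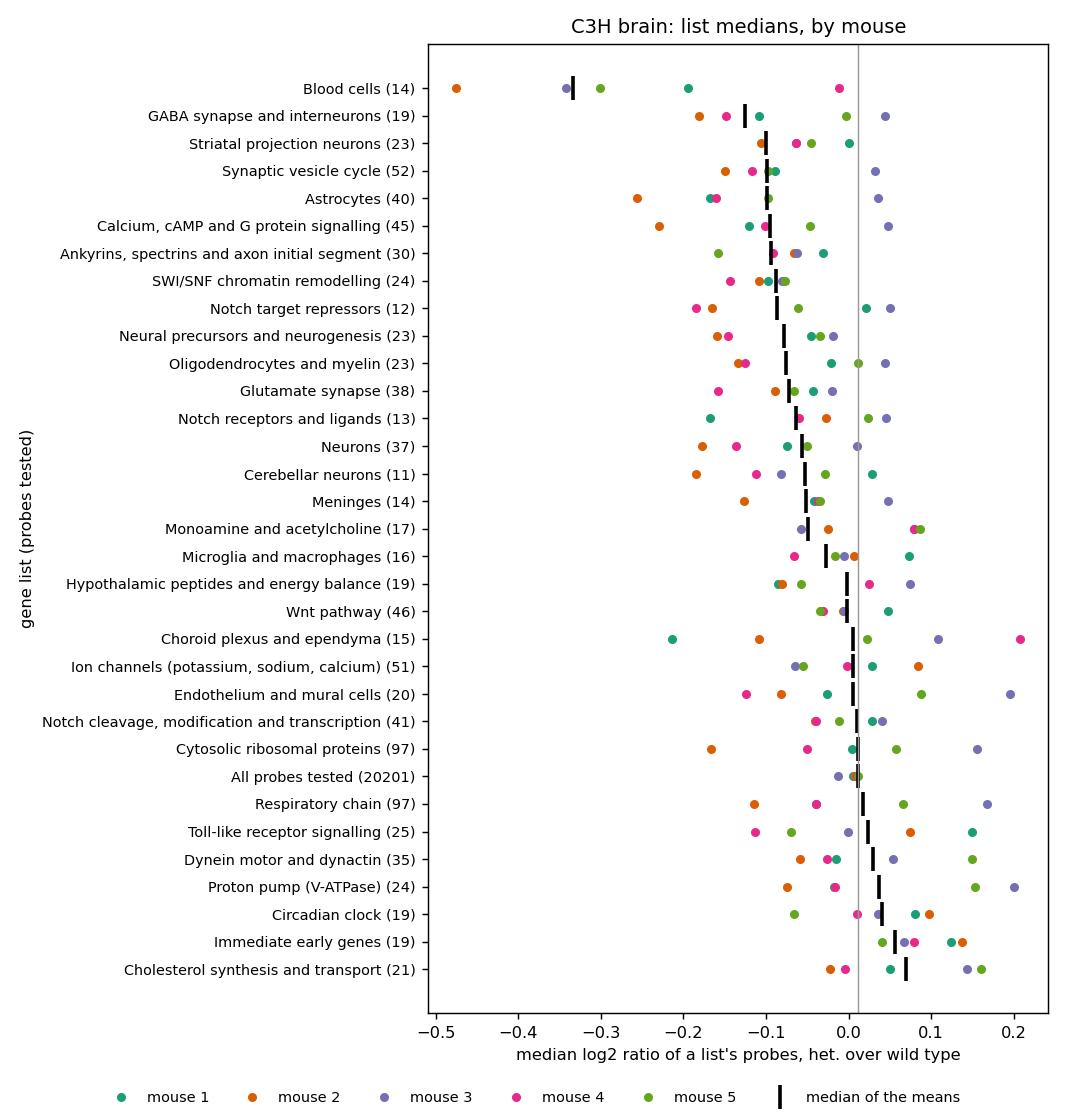
Median log2 ratio of heterozygous over wild-type RNA (x axis) over the probes of each gene list (y axis, number of probes tested in brackets), with 1 coloured point for each of the 5 mice and a black bar for the median of the means over mice; the grey line marks the median of all probes, and the 4 pituitary probes are left out for their scale. Mouse 3 lies right of the black bar in most neuronal and glial lists, and the blood cell list has the lowest bar at −0.33.

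Lists built around the leading genes show how far these genes stood from their partners. The proton pump list had a median of 0.04 over 24 probes, and its 2 probes at the unadjusted threshold were those of Atp6v0a1. The alternative subunits Atp6v0a2 and Atp6v0a4 had −0.28 ± 0.29 and 0.25 ± 0.29. Dynein and dynactin genes had a median of 0.03 over 35 probes, with 3 higher and 2 lower. Dctn4 had 0.72 ± 0.27 (n = 3) by 1 probe and −0.16 and 0.01 by others, and Dynll2 had −0.33 ± 0.09 (n = 4) by 1 probe, with others between 0.05 and 0.46. SWI/SNF genes had a median of −0.09 over 24 probes, with 6 lower (25.0%) and 0 higher (median −0.14 without mouse 4), among them the ATPases Smarca2 (−0.40 ± 0.17) and Smarca4 (−0.24 ± 0.10, and −0.32 by another probe), each with no array above 0 by the first probe. Other Smarca2 probes gave 0.04 and −0.02. The ankyrin and spectrin list had −0.09 over 30 probes, with 6 lower (20.0%) and 0 higher, and −0.05 without mouse 2. Add1, which caps actin in the membrane skeleton, had −0.25 ± 0.17 and −0.26 by its probes, and Epb41l3, a link between membrane proteins and actin, −0.28 ± 0.19 with no array above 0. These lists were drawn up with earlier results of these data known, so that the leading gene of each is no independent sign.

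The remaining pathways differed in their counts. Toll-like receptor signalling had 3 higher (12.0%) and 3 lower (12.0%) of 25 probes, with a median of 0.02. Wnt signalling had 0 higher and 3 lower (6.52%) of 46, among them Dvl3 (−0.34 ± 0.11) and Apc (−0.26 ± 0.10) with no array above 0. With 1 mouse left out, another Dvl3 probe gave −0.09 to 0.32 and another Apc probe −0.38 to 0.04. Immediate early genes, which neurons switch on with activity, lay mostly above 0 (4 of 19 probes below, median 0.06, and 0.13 and 0.10 without mouse 2 and mouse 3), with the phosphatase Dusp1 at 0.74 ± 0.72 and Klf4 at 0.23 ± 0.19 at the unadjusted threshold. Dusp1 had 0.59, 1.07, 0.20, 1.81 and 0.04, a wide spread in which mouse 4 made the largest part. Clock genes had a median of 0.04 over 19 probes, with Dbp on the lower and Nfil3 (0.26 ± 0.11, n = 4) on the higher side. Of 21 cholesterol probes, with a median of 0.07 (0.02 without mouse 3 and 0.01 without mouse 5), 1 was higher and 2 were lower. The higher one was Hmgcs1 (0.18 ± 0.13). The lower ones were Cyp51 (−0.49 ± 0.42, n = 4) and the lysosomal carrier Npc2 (−0.19 ± 0.11). With 1 mouse left out, another Cyp51 probe gave 0.02 to 0.24 and another Npc2 probe −0.18 to 0.16. The respiratory chain (97 probes, median 0.02) and the cytosolic ribosomal proteins (97 probes, median 0.01) had 1 probe each on the higher side and 0 and 2 on the lower, shares of 1.03% and 3.09% in all.

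Pituitary hormone genes had the widest ratios of all named cell types and split the mice. The growth hormone gene Gh had −2.31, −2.21, 1.50, −1.22 and −1.37 in mouse 1 to mouse 5 (mean −1.12 ± 1.55), and the prolactin gene Prl −2.89, −3.66, 1.68, −1.31 and −1.23 (mean −1.48 ± 2.05). Both dyes of each mouse lay on the same side for both genes, so mouse 3 was higher and the other 4 mice were lower than the wild-type pool. Cga, the alpha subunit shared by several pituitary hormones, had −0.92, −0.68, 0.28, −0.58 and −1.21 (mean −0.62 ± 0.56). Tshb, the beta subunit of thyrotropin, did not follow them, with 0.29, 0.82, 0.54, 0.20 and 0.01 (mean 0.37 ± 0.31). Its Cy5 mean was 0.76 and its Cy3 mean −0.02. In C3H liver, an organ not known to make these hormones, Gh and Prl had 0.05 ± 0.20 and 0.05 ± 0.17 (n = 4 for Prl). Of the 4 pituitary probes 1 was lower and 1 higher at the unadjusted threshold, and the part of the pituitary RNA in the values of other genes was not tested.

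Most haemoglobin probes lay below 0 on every array. Of 6 probes for Hba-a1, the alpha chain of haemoglobin in red blood cells, 5 were below 0 on all 10 arrays, with means between −0.40 and −0.48, and all 5 were at the unadjusted threshold. Probe 15520 had −0.19, −0.66, −0.45, −0.75 and −0.33 (mean −0.48 ± 0.23) and probe 15423 −0.26, −0.63, −0.50, −0.79 and −0.19 (mean −0.47 ± 0.25). The sixth, probe 19752, followed in 4 mice between −0.75 and −0.19 but had 1.18 in mouse 4. These probes share 1 transcript and count as 1 gene. The whole blood list had a median of −0.33 over 14 probes of 8 genes, with 5 lower (35.7%), all Hba-a1, and 0 higher. This median was −0.11 without mouse 1, and in mouse 4 alone the list's median was −0.01. Alas2, the haem enzyme of red cells, had −0.27 ± 0.36, of which mouse 1 at −0.90 made the size, and the red cell anion exchanger Slc4a1 had 0.23 ± 0.42. The part of blood in the other results was not tested. In the other C3H organs Hba-a1 probe 15520 had −0.34 ± 0.41 in liver and −0.09 ± 0.54 in thymus.

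**Figure D4:**
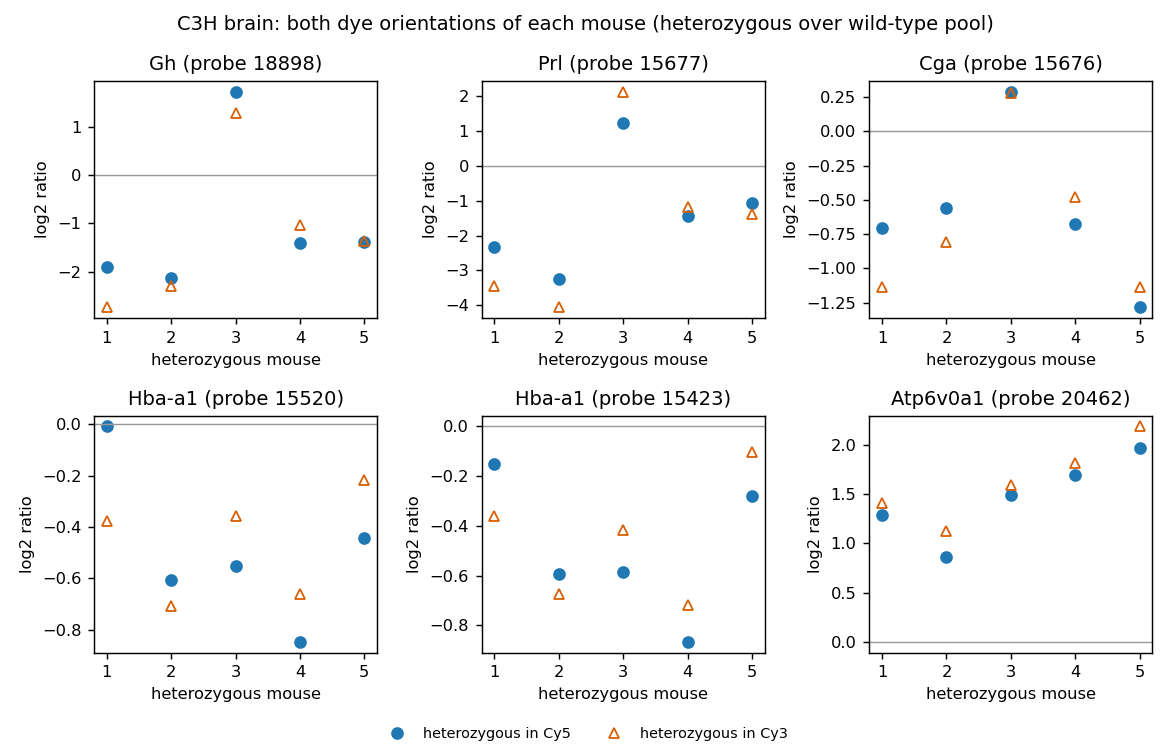
Log2 ratio of heterozygous over wild-type RNA (y axis, scaled to each panel) on the Cy5 (filled circles) and Cy3 (open triangles) array of each of the 5 heterozygous mice (x axis) for Gh, Prl, Cga, a pair of Hba-a1 probes and Atp6v0a1. Mouse 3 alone lies above 0 for Gh, Prl and Cga in both dyes, while Hba-a1 is below 0 and Atp6v0a1 above 0 on every array.

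Differences between the mice were tested over all probes with 10 values by a moderated F test with a dye term, added after the values were seen. None of 16668 probes passed after adjustment (smallest adjusted p = 0.276), and 1093 (6.56%) had p under 0.05 before it. Gh and Prl were among the 10 probes with the smallest p, as were Pih1d1, an assembly factor of large protein complexes, and the ion channel Mcoln2. Pih1d1 had −4.34 in mouse 1 by probe 13137, with −3.66 and −5.02 on its arrays, while the other mice lay between −0.17 and 0.41, and its second probe had 0.20 in mouse 1. Mcoln2 likewise had −4.34 in mouse 1 and −0.45 to 0.21 in the others. Hgs, an endosomal sorting protein, had −2.54 in mouse 4. These values repeat between the dyes of a mouse, which share its RNA.

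The dyes of a mouse were compared by a limma test of their difference. Before adjustment 3277 probes (16.2%) differed between the Cy5 and the Cy3 arrays of a mouse, and 0 after it (smallest adjusted p = 0.0609). This test differs in form and in its probes from that between mice, so the counts of both do not rank dye and mouse. Spearman correlations over all probes were 0.03 to 0.26 (median 0.16) between arrays that shared the dye orientation but not the mouse, against −0.03 to 0.11 (median 0.02) between the dyes of 1 mouse and −0.19 to 0.10 (median −0.03) between arrays that shared neither. Arrays share the wild-type pool, and probes are not independent. The respiratory chain list shows the dye plainly, with a median of −0.11 on Cy5 and 0.13 on Cy3 arrays. The calcium and cAMP list had −0.13 and −0.10, and the glutamate list −0.09 and −0.08. Other lists leaned on 1 dye: SWI/SNF genes had −0.15 and −0.01, astrocyte genes −0.20 and −0.06, and GABA genes −0.185 and −0.06. Monoamine and acetylcholine genes changed sign, with 0.19 and −0.14.

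Brain ratios were set against those of liver and thymus of the same 5 heterozygous mice in 1 fit. Against liver, 1 of 19924 probes passed (0.00502%): Atp6v0a1 probe 17392, with 1.33 ± 0.37 in brain and −0.12 ± 0.20 in liver, a difference of 1.45 (adjusted p = 0.0418). With the mouse as a replicate block no probe passed (adjusted p = 0.139 for this probe), and none did when mouse 1, 3, 4 or 5 was left out. The other Atp6v0a1 probe had 1.55 ± 0.41 in brain and 0.11 ± 0.71 in liver (n = 4), a difference of 1.44 (adjusted p = 0.278). Dynlt1b probe 3029 had 1.34 ± 0.42 in brain, against −0.22 ± 0.46 in liver (n = 3, adjusted p = 0.121). In C3H thymus these 3 probes had 0.24 ± 0.35 (17392), 0.34 ± 0.59 (20462) and 0.08 ± 0.35 (Dynlt1b). In C3H spleen, which was not fitted, both Atp6v0a1 probes were above 0 on all 9 arrays, from 0.27 to 1.43 and from 0.21 to 1.32, below most of the brain values. The next genes against liver, each with an adjusted p of 0.0787, were Egr1, Tbx3, Sumo3 and Ciao3. Egr1, an activity-induced transcription factor, had 0.13 ± 0.04 in brain and −1.38 ± 0.74 in liver (n = 3 there). The T-box factor Tbx3 had 0.17 ± 0.13 and −1.35 ± 0.49 (n = 3 there). Another Tbx3 probe gave −0.30 to −0.10 in brain with 1 mouse left out. Sumo3, a small ubiquitin-like modifier, had 0.25 ± 0.09 and −0.35 ± 0.13. Ciao3, which matures iron-sulphur proteins, had −0.27 ± 0.10 and 0.26 ± 0.12.

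Against thymus, 5 of 19739 probes passed (0.0253%), all with the higher ratio in brain. The only one with a symbol was Bcl11b, a transcription factor of T cell and striatal neuron development, with 0.23 ± 0.20 by probe 6459 in brain and −0.94 ± 0.09 in thymus, a difference of 1.17 (adjusted p = 0.0166). The other Bcl11b probe gave −0.21 ± 0.20 in brain and −0.16 ± 0.10 in thymus, so the difference was seen by 1 probe. With the replicate block none of the 5 passed (adjusted p = 0.145 for Bcl11b), nor did any when a mouse was left out. The T cell genes Satb1 and Ubash3a had 0.41 ± 0.43 (n = 4) and 0.30 ± 0.11 in brain, against −0.63 ± 0.19 and −0.38 ± 0.15 in thymus. Dnajc5, a chaperone of synaptic vesicles, had −0.30 ± 0.13 in brain and 0.25 ± 0.12 in thymus (adjusted p = 0.127 for each of these 3). In brain, Satb1 probe 6649 gave −0.12. With 1 mouse left out, Dnajc5 probes 11791 and 18486 lay between 0.01 and 0.09 there.

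Against the brain of 129SvJ/Iso heterozygotes, 0 of 15487 probes passed (0% called), with 1533 at the unadjusted threshold and a smallest adjusted p of 0.109. These mice (4 mice, 14 arrays, 16 weeks old per the labels) carried the same allele in another strain, and the direction of their ratios is not settled. With the sign turned on 1 dye orientation of the 129SvJ/Iso arrays, 923 or 732 probes passed, so this contrast carries little information about the C3H brain. The genes with the smallest p were near 0 in C3H brain, with Frmd6 at 0.13 ± 0.15, Sp1 at −0.17 ± 0.24, Senp1 at 0.13 ± 0.24, Baz1b at −0.06 ± 0.18 and Ccdc12 at 0.01 ± 0.06, and their 129SvJ/Iso means were −1.18 (n = 3), 1.51, −1.03, 1.64 and −1.36. Atp6v0a1 had 0.28 ± 0.17 and −0.09 ± 0.47 in 129SvJ/Iso brain by probes 20462 and 17392, against which the C3H brain was higher by 1.27 and 1.42 (adjusted p = 0.125 and 0.142).

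**Figure D5:**
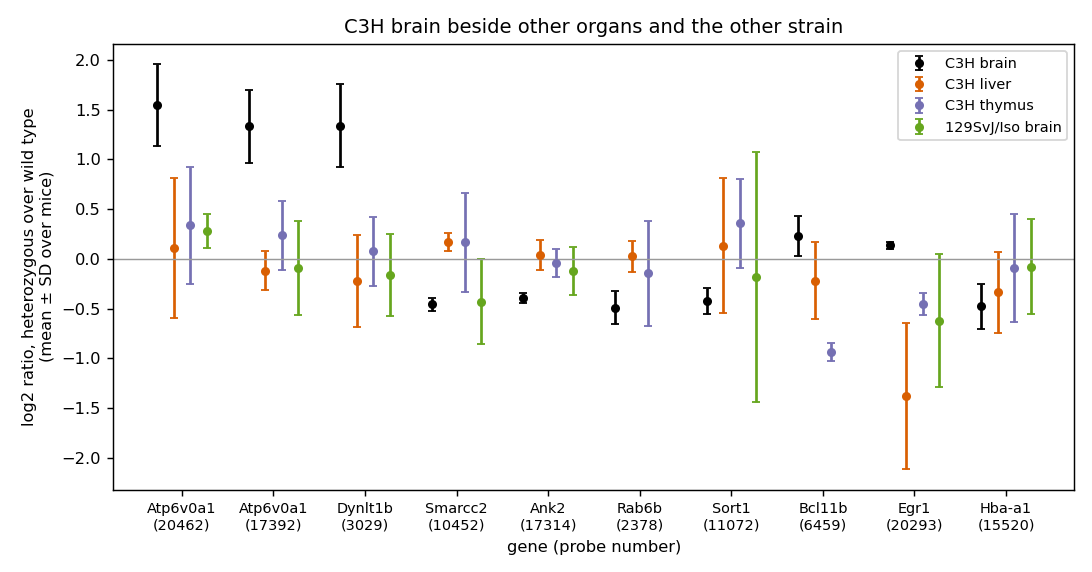
Mean ± SD over mice of the log2 ratio of heterozygous over wild-type RNA (y axis) in C3H brain (black, 4 or 5 mice), C3H liver, C3H thymus and 129SvJ/Iso brain for selected probes (x axis), shown for groups with at least 3 mice; the sign in 129SvJ/Iso brain is not settled. Atp6v0a1 and Dynlt1b stand above the other groups shown in C3H brain, and Bcl11b is lowest in thymus at −0.94. C3H spleen, where both Atp6v0a1 probes were above 0 on every array, is not shown.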

How the data were processed

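Log2 ratios of 10 C3H brain arrays (GenePix scanner and software and the TM4 suite per the study's methods) were taken from the deposited value table. The authors made the deposited log2 values, and how they were normalized is not stated in the sources. Some values sat where log2 ratios of small whole-number signals plus 1 constant for each array would lie. Ratios of whole numbers up to 5 held 3.65% to 5.32% of an array's values, against 1.14% to 1.52% at positions beside them. Each array held 305 to 1234 missing values and 68 to 134 spots with 1 extreme constant, which was treated as missing. Of 20794 probes, 12771 had 1 gene symbol (9030 symbols, all found in the RefSeq gene table), 0 had several and 8023 had none.

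A mouse's value is the mean of both dye orientations. Each probe measured in 3 or more mice was tested against 0 with limma 3.58.1 (lmFit, eBayes) in R 4.3.3, two-sided, with Benjamini-Hochberg adjustment over all probes and a threshold of 0.05, and tables were made with Python 3.11.15 and pandas 2.3.3. The fits were tested on simulated data. The replicates are separate mice, and their number limits the precision. Brain was contrasted with liver and thymus in 1 fit over 5 mice each, and with 129SvJ/Iso brain over 5 and 4 mice. The labels' mouse identities pair the organs. Deviations from the organ means correlated by −0.14 to 0.04 for brain and liver of the same mouse (−0.12 to 0.19 between mice) and by 0.01 to 0.16 for brain and thymus (−0.13 to 0.09 between mice), and values with the mouse as a replicate block are given beside the contrasts.

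Named were the 12 higher and 12 lower probes with a gene symbol and 1 sign in every mouse (at least 4 mice) with the smallest p. Also named were all Notch members, up to 4 genes of each other list, and genes within 10 Mb of Dll1 at the unadjusted threshold. The 5 probes with a symbol and the smallest p of each contrast, and other probes of these genes, completed the set. Probes of 1 sign on all 10 arrays, the largest mouse differences and the blood members were added after the values were seen. The members and the 33 lists were chosen with earlier results of these data known. Alternatives covered the extreme values, centring, scale, single dyes, random mouse block, filters, robust fit, averaging per symbol, left-out mice, dim spots (added) and a turned sign.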

Additional observations from a re-analysis of the deposited data

Results flagged for a closer look

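Within a group of 4 or 5 mice, 1 mouse stood far from the others for 30 of 372 named probes. Chance gives this for about 1 in 20 groups. Some of the named probes were chosen for their large mouse differences in these data, and the share over all probes is not given. The count can therefore not be read as an excess over chance. Mouse 1 was above the others for Hes1 (2.04), C2cd2 (2.04), Furin (1.91), Tril probe 16081 (1.89) and Pdxp (1.53). It was below them for Pih1d1 (−4.34), Mcoln2 (−4.34), Atp6v0a2 probe 4413 (−1.42), Cmtr1 (−1.07), Kat2b probe 6399 (−1.05), Alas2 (−0.90), Spen (−0.54) and Dctn2 (−0.38). Mouse 2 was above the others for Dll3 (1.21). Mouse 3 was above them for Smad2 (2.02), Gh (1.50), Tbp (0.78), Prkar1a probe 19392 (0.10) and Vsnl1 (0.024). Mouse 4 was above for Hba-a1 probe 19752 (1.18) and Foxj1 probe 17426 (0.76), and below for Dnmt3a probe 5043 (−1.92), Col1a1 probe 4894 (−1.10), 1600012H06Rik probe 7165 (−0.70) and Psen2 probe 17183 (−0.22). Mouse 5 was above for Gsn (1.31), Ptprc probe 11459 (0.39) and Dctn4 probe 17727 (0.12), and below for Jag2 probe 27 (−1.39) and Dtx2 (0.052).

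The ratio of heterozygous over wild type differed between C3H brain and another organ of the same mice for 6 probes, by limma with an adjusted p under 0.05 and no block. They were Atp6v0a1 probe 17392 against liver (difference 1.45), and Bcl11b probe 6459 (1.17) and the probes without a symbol 5706 (1.32), 3031 (1.25), 2273 (0.96) and 5600 (0.64) against thymus. None of the 6 passed with the mouse as a replicate block.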

How the results depend on the processing

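In C3H brain the count of 0 adjusted calls was the same under every alternative except the random mouse block, which gave 4. The 1769 probes at an unadjusted p under 0.05 became 2663 with Cy3 arrays only, 746 of 8840 averaged per symbol, and 1106 to 2460 with 1 mouse left out (lowest without mouse 2, and 1168 without mouse 5). For the dye, 1 probe passed with equalised array scales and 2 with values in all mice, instead of 0. The contrast with liver gave 1 call, and 0 with the extreme values kept, with Cy5 arrays only, per symbol or with the replicate block. It gave 2 with equalised scales, 4 with Cy3 arrays only, 5 with values in all mice, 53 with the random block and 0 to 1 with a mouse left out. The contrast with thymus gave 5 calls, 3 with the extreme values kept, 28 with the random block, and 0 with either dye alone, per symbol, with the replicate block or without any 1 mouse. The contrast with 129SvJ/Iso brain gave 163 calls with Cy5 and 364 with Cy3 arrays only, 2 with values in all mice or per symbol, 6 with the random block, and 0 to 16 with a mouse left out (16 without 129SvJ/Iso mouse 2). Near Dll1, with Dll1 itself counted, 15 probes at the unadjusted threshold became 6 within 5 Mb and 9 to 15 with a mouse left out.

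Turning the sign on the Cy3 arrays shows what a wrong orientation, or the dye alone, would give: 3277 probes at the unadjusted threshold, 84 probes above and 373 below 0 on all arrays, and 2 calls against liver and 8 against thymus. Means then reversed to −0.084 and −0.052 for Atp6v0a1, −0.26 for Dynlt1b, −0.19 for Spcs1, −0.026 for Tbp, 0.045 for Smarcc2, 0.18 for Camk2a, 0.14 for Mvb12b, 0.24 for Atxn2l, 0.065 for Fam107a, 0.016 for H3f3a and 0.16 for Sort1. Gdap2 was −1.29 with the extreme values kept. The next values are differences, C3H brain minus 129SvJ/Iso brain, and not means. With the sign turned on 129SvJ/Iso Cy3 arrays 923 probes passed that contrast, and the difference became 1.99 for Baz1b and −0.18 for Ccdc12. With the 129SvJ/Iso Cy5 arrays turned 732 passed, and the difference became −0.33 for Senp1, −1.04 for Frmd6 and 0.68 for Sp1. On Cy5 arrays only, the difference for Baz1b was 0.43. The cause of these shifts was not tested. With 5 mice and 1 wild-type pool, values of single probes carry the limits of dim spots, of the dye and of a pool whose own spread was not measured.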
